A study of Homo sapiens with 6 samples.

Results

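Bone morphogenetic protein (BMP) signalling and its ID target genes were followed in a brain-seeking breast cancer cell line and its parental line MDA-MB-231 through 10 genes chosen by symbol. These were the ligands BMP2 and BMP4, the secreted antagonist GREM1, the receptors BMPR1A and BMPR2, the inhibitory SMADs SMAD6 and SMAD7, and the target genes ID1, ID2 and ID3. All 10 were found among the 17039 genes of the expression table, which lists BMP2 under gene identifier 650, BMP4 under 652, GREM1 under 26585, BMPR1A under 657, BMPR2 under 659, SMAD6 under 4091, SMAD7 under 4092, and ID1, ID2 and ID3 under 3397, 3398 and 3399. Poly(A) RNA was sequenced from 3 libraries of each cell line. MDA-MB-231 is a triple-negative human breast cancer line with mesenchymal features, and the brain-seeking line, with libraries titled 231BR_1, 231BR_2 and 231BR_3, is its variant that metastasizes to the brain. The labels name no altered gene in either line. Both were grown in the same serum-containing medium, but G418 was added for the brain-seeking line only. The brain-seeking line was a gift from another laboratory, and MDA-MB-231 was bought from ATCC. The line, the drug and the source of the cells therefore cannot be told apart. The sources do not say whether the libraries of a line came from separate cultures, so the p-values measure only the spread between these libraries. The comparison asked which transcripts of the pathway differed in level between the brain-seeking line and the parental line.

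BMPs are secreted ligands of the TGF-beta superfamily that bind a complex of type I and type II serine/threonine kinase receptors. The activated type I receptor phosphorylates SMAD1, SMAD5 and SMAD9, which join SMAD4 and enter the nucleus. The ID genes are classic direct targets. Their products lack a DNA-binding domain and hold E proteins and other basic helix-loop-helix factors away from DNA, and ID1 and ID3 are known for roles in breast cancer growth and metastasis. SMAD6 and SMAD7 are inhibitors that the same signal can induce, and GREM1, NOG, chordin-like proteins and follistatin bind ligands outside the cell.

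Levels are given as FPKM, the fragments mapped to a gene scaled by its length and by the library's mapped reads, which can be compared between genes since it is per length. The depth behind each value is unknown, because FPKM keeps no read total. Summed FPKM ran from 465020 to 472007 in the brain-seeking line and from 486937 to 496420 in MDA-MB-231. The labels were checked against marker genes. VIM, a mesenchymal marker, averaged 2553 FPKM in the brain-seeking line and 2306 FPKM in MDA-MB-231, ESR1 was at most 1.08 FPKM, PGR at most 0.07 FPKM and CDH1 at most 0.03 FPKM in any library, while ERBB2 averaged 9.88 and 4.95 FPKM. CD44 averaged 181.2 FPKM in the brain-seeking line and 250.6 FPKM in MDA-MB-231. Epithelial markers other than CDH1 were present, with KRT18 at 272.7 and 351.8 FPKM, KRT8 at 176.3 and 237.4 FPKM, and EPCAM at 8.70 and 5.06 FPKM. Of 10 marker genes of leukocytes, endothelium and brain cells, 7 were at most 0.1 FPKM in every library. Their summed level ran from 21.4 to 21.9 FPKM in the brain-seeking line and from 13.2 to 14.6 FPKM in MDA-MB-231. Nearly all of that sum was MBP, with means of 21 and 13.6 FPKM, and its part in the results was not tested.

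The BMP2 and BMP4 ligands and SMAD6 were higher in brain-seeking cells, and the 3 ID genes, SMAD7 and the type II receptor BMPR2 were lower. BMPR1A was slightly higher, and GREM1 was not expressed at a level that could be tested. A fold change is the difference in log2(FPKM + 0.1) between the lines, brain-seeking minus MDA-MB-231, fitted with limma over the 13465 genes with a mean of at least 0.1 FPKM, with p-values adjusted by the Benjamini-Hochberg method over all of them. The pseudocount of 0.1 understates changes of low genes. At an adjusted p under 0.05, 9 of the 9 genes tested were called, 4 higher and 5 lower, where 77.3% of all genes tested were called, 44.4% higher and 32.9% lower. No library of one line reached into the range of the other for any of the 9, as for 78.4% of all genes, so neither count sets these genes apart. When a log2 fold change beyond 1 in either direction was also required, 6 of the 9 were called, against 15.2% of all genes. Of these, 2 were higher (background 10.9%) and 4 were lower (background 4.34%). The median log2 fold change was -0.51 over the 9 genes and 0.08 over all genes tested. Quantile normalization moved the latter median to -0.06 and turned the split of all adjusted calls from 5973 higher and 4433 lower to 4820 and 5737, and that of calls over the fold criterion from 1467 and 584 to 1066 and 939. The direction of each of the 9 genes was the same in all alternatives in which it was tested. In RNA of whole cultures, fewer cells expressing a gene and less of its RNA per cell cannot be told apart.

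**Figure D1:**
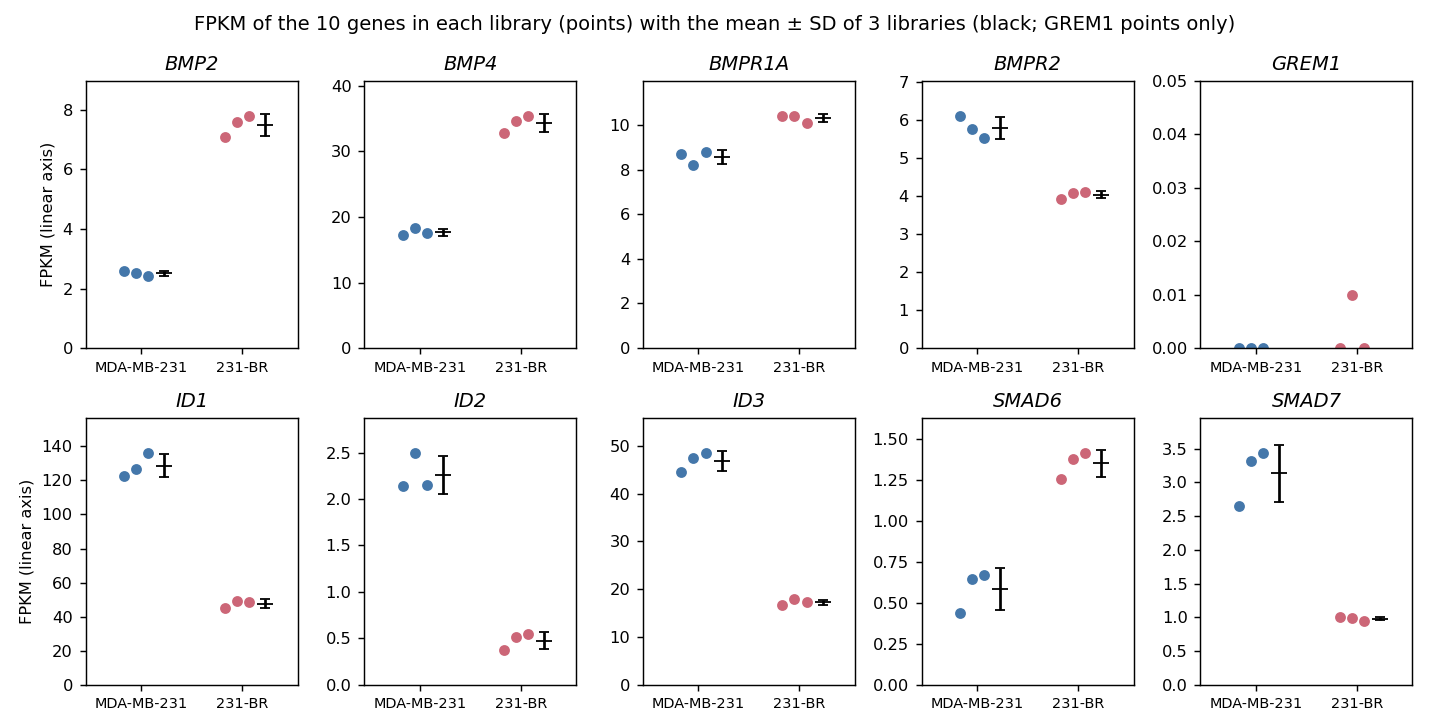
FPKM of each of the 10 genes on a linear axis from 0, with 1 panel per gene, blue points for the 3 MDA-MB-231 libraries, red points for the 3 brain-seeking libraries and black bars for the mean ± SD (omitted for GREM1). The points of the lines are apart in every panel except GREM1, whose highest value is 0.01 FPKM.

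BMP4, a ligand that also acts in mammary development, was the more abundant ligand of the pair in both lines. It lies at chr14:53949736-53958761 (GRCh38, minus strand). Its level was 32.9, 34.7 and 35.4 FPKM in brain-seeking replicates 1, 2 and 3, against 17.2, 18.3 and 17.6 FPKM in MDA-MB-231 replicates 1, 2 and 3. Values per library are given below in this order of replicates, with the brain-seeking line first. Every brain-seeking library was above every MDA-MB-231 library. The means were 34.3 ± 1.31 and 17.7 ± 0.536 FPKM (SD, n = 3 each), and the log2 fold change was 0.95 (standard error, SE, 0.038, 95% interval 0.87 to 1.04, adjusted p = 7.6e-09 from limma). BMP4 thus stayed just under the fold criterion, and it passed at 1.02 when each library was scaled to the same summed FPKM. The 40 neighbouring genes expressed at a mean of at least 1 FPKM on chromosome 14 had a median log2 fold change of 0.45, and the part of neighbouring genes in this and the later results was not tested.

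BMP2, the ligand best known for inducing bone, lies at chr20:6767664-6780280 (plus strand). It reached 7.09, 7.61 and 7.80 FPKM against 2.60, 2.52 and 2.41 FPKM. These values do not overlap and the lowest brain-seeking library is far above the highest MDA-MB-231 library. The means were 7.50 ± 0.368 and 2.51 ± 0.0954 FPKM (SD, n = 3 each), and the log2 fold change was 1.54 (SE 0.061, 95% interval 1.40 to 1.68, adjusted p = 7.8e-09 from limma). Its neighbours on chromosome 20 had a median log2 fold change of 0.05. The sum of BMP2 and BMP4 was 41.8 ± 1.68 FPKM against 20.2 ± 0.518 FPKM (SD, n = 3 each).

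The balance of the ligands also differed. BMP4 was 4.64, 4.56 and 4.54 times BMP2 against 6.62, 7.25 and 7.31 times BMP2. Such a ratio within a library does not depend on the scaling between libraries. The log2 ratios differed by -0.59 between the lines (exact permutation test, 2-sided, p = 0.1, the smallest that 3 against 3 libraries allow; 0.117 after Benjamini-Hochberg adjustment over the 7 ratios compared). This ratio was chosen after its values were seen.

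GREM1 encodes gremlin 1, a secreted antagonist that binds BMP2 and BMP4. All MDA-MB-231 libraries and brain-seeking replicates 1 and 3 list it at 0, and brain-seeking replicate 2 lists 0.01 FPKM. It was therefore below the filter and no ratio of GREM1 to its ligands was formed. The gene, at chr15:32717974-32745107 (plus strand), shares exon positions with the noncoding gene AC090877.2 on the opposite strand.

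Of the pathway genes tested, the secreted antagonists CHRDL1 and FST had the largest log2 fold changes. CHRDL1, a chordin-like protein that binds BMPs, had 27.4, 27.1 and 27.2 FPKM against 0.07, 0.04 and 0.04 FPKM, a log2 fold change of 7.52 (SE 0.094, adjusted p = 6.1e-12 from limma). Its size depends on the pseudocount, from 4.75 with 1 to 8.86 with 0.01, and its neighbours on chromosome X had a median of 0.58. FST, which encodes follistatin, an antagonist of activins that also binds BMPs, had 73.6, 71.5 and 75.2 FPKM in the brain-seeking line against 2.95, 2.33 and 2.96 FPKM in MDA-MB-231. Its log2 fold change was 4.70 (SE 0.079, adjusted p = 2.8e-11 from limma), with a neighbour median of 0.02 on chromosome 5. NOG, which encodes noggin, differed less, with 15.8, 16.8 and 17.3 FPKM against 11.5, 12.3 and 13.5 FPKM and a log2 fold change of 0.42 (adjusted p = 8.9e-05 from limma), beside a neighbour median of 0.36. CHRD, the gene of chordin itself, was at most 0.06 FPKM in any library and was not tested. The sum of NOG, CHRDL1 and FST over the sum of BMP2 and BMP4 was 2.92, 2.73 and 2.77 against 0.732, 0.703 and 0.823, a log2 difference of 1.90 (exact permutation p = 0.1, adjusted 0.117). This sum was also chosen after its values were seen, and it left out other tested extracellular antagonists or modulators. Of the 10 tested, 6 were higher at the adjusted p, 2 were lower and 2 did not pass. Of all genes tested, 77.3% were called, 44.4% higher and 32.9% lower, so this count does not set the antagonists apart. The most abundant, CRIM1, was left out and did not pass, at 95.01 against 95.86 FPKM (log2 fold change -0.01). Also left out were TWSG1 (-0.13) and FSTL3 (-0.25), which were lower, and NBL1 (0.31), which was higher. The difference therefore describes NOG, CHRDL1 and FST only.

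**Figure D2:**
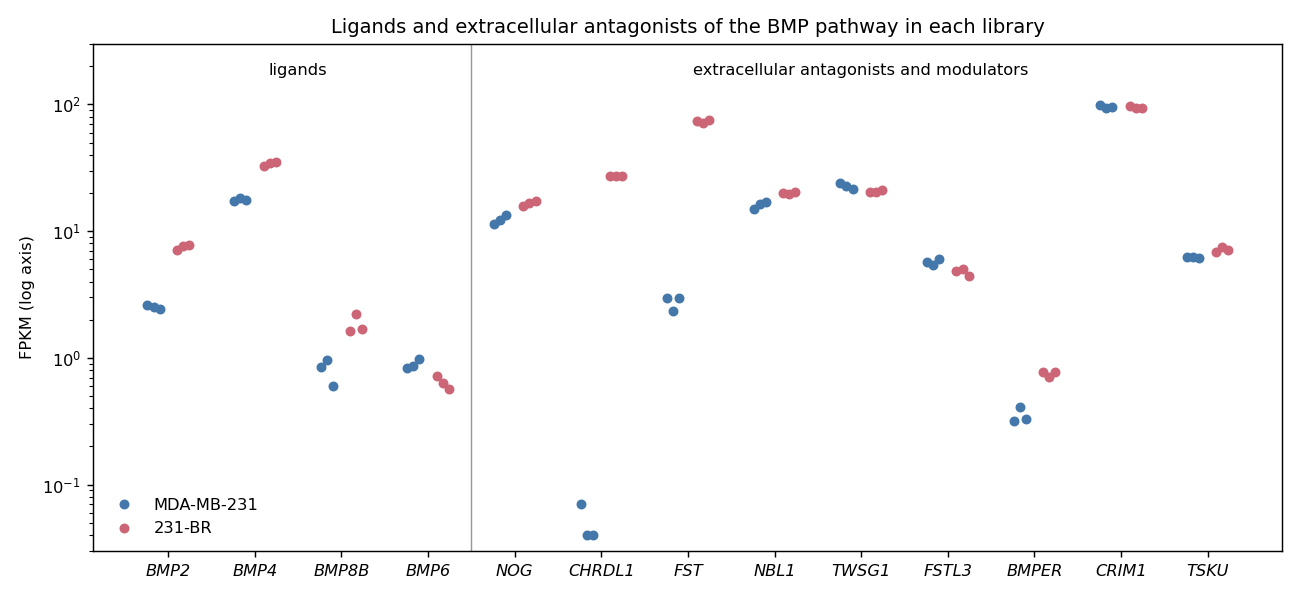
FPKM on a log axis of the BMP ligands and of the extracellular antagonists and modulators with a mean of at least 0.5 FPKM in a line, with 1 point per library, blue for MDA-MB-231 and red for the brain-seeking line. CHRDL1 rises from at most 0.07 FPKM to at least 27.1 FPKM and FST from at most 2.96 to at least 71.5 FPKM, while BMP2 and BMP4 differ by far less.

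Of the receptors, the type I receptor BMPR1A and the type II receptor BMPR2 moved in opposite directions. BMPR1A, also called ALK3, lies at chr10:86756601-86932838 (plus strand). It had 10.4, 10.4 and 10.1 FPKM against 8.68, 8.19 and 8.77 FPKM, so the lines were close but did not overlap. The means of 10.3 ± 0.173 and 8.55 ± 0.312 FPKM (SD, n = 3 each) gave a log2 fold change of 0.27 (SE 0.043, 95% interval 0.17 to 0.37, adjusted p = 0.00025 from limma). This was the smallest change of the 9 genes, beside a neighbour median of 0.20. Reads of BMPR1A are partly uncertain, since 5.98% of the 100-base stretches of its transcripts also occur in transcripts of other genes, among them the pseudogenes BMPR1AP1 and BMPR1AP2.

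BMPR2, the type II receptor that is specific for BMPs, lies at chr2:202376936-202567751 (plus strand). It had 3.93, 4.07 and 4.10 FPKM against 6.11, 5.76 and 5.53 FPKM. Every brain-seeking library was below every MDA-MB-231 library. The means were 4.03 ± 0.0907 and 5.80 ± 0.292 FPKM (SD, n = 3 each), and the log2 fold change was -0.51 (SE 0.057, 95% interval -0.64 to -0.38, adjusted p = 1.6e-05 from limma), and the neighbour median was -0.10. BMPR1A was 2.56 ± 0.0915 times BMPR2 against 1.48 ± 0.0951 times (SD, n = 3 each), a log2 difference of 0.78 (exact permutation p = 0.1, adjusted 0.117).

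Among the other receptors, BMPR1B, a type I receptor also called ALK6, had 1.49, 1.39 and 1.53 FPKM in the brain-seeking line against 0.41, 0.34 and 0.31 FPKM in MDA-MB-231. Its log2 fold change was 1.80 (SE 0.12, adjusted p = 3.5e-07 from limma), and its neighbours on chromosome 4 had a median of 0.52. ACVR1, the type I receptor ALK2, was lower, with 6.15, 6.07 and 5.94 FPKM against 9.82, 9.15 and 9.48 FPKM and a log2 fold change of -0.64 (adjusted p = 5.7e-07 from limma). ACVRL1, which encodes ALK1, the type I receptor of endothelium, was at most 0.06 FPKM and was not tested. The type II receptors that activins share did not pass the test. ACVR2A had a log2 fold change of -0.10 (95% interval -0.27 to 0.07, adjusted p = 0.24 from limma) and ACVR2B one of 0.08 (95% interval -0.14 to 0.29, adjusted p = 0.49). ACVR2A did pass after median-of-ratios scaling (-0.18), after quantile normalization (-0.47) and without the mean-variance trend. ACVR2B passed after quantile normalization only among the alternatives, with its direction turned (-0.32, adjusted p = 0.013 from limma).

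The SMADs that carry the signal differed in direction. SMAD1 had 7.49, 7.73 and 8.63 FPKM in the brain-seeking line against 4.26, 4.11 and 3.72 FPKM in MDA-MB-231, a log2 fold change of 0.96 (SE 0.071, adjusted p = 6.8e-07 from limma). Without brain-seeking replicate 1, and equally without MDA-MB-231 replicate 1, it was 1.00 and passed the fold criterion. It also passed, at 1.04, when each library was scaled to the same summed FPKM. SMAD5, the most abundant of these SMADs, was 13.0 ± 0.492 against 15.5 ± 0.844 FPKM (SD, n = 3 each), and SMAD9 was 0.507 ± 0.0473 against 0.987 ± 0.0681 FPKM (SD, n = 3 each). Their log2 fold changes were -0.24 and -0.84 (adjusted p = 0.00098 and 8.5e-05 from limma). The sum of SMAD1, SMAD5 and SMAD9 was 21.5 ± 0.742 FPKM against 20.5 ± 1.10 FPKM (SD, n = 3 each), and the libraries overlapped. SMAD4, their common partner, had 6.34, 6.53 and 6.29 FPKM against 3.15, 3.08 and 3.01 FPKM, with a log2 fold change of 1.03 (SE 0.054, adjusted p = 5.1e-08 from limma). It fell under the fold criterion with a pseudocount of 1 (0.86), after median-of-ratios scaling (0.95) and after quantile normalization (0.78). The neighbours of SMAD1 on chromosome 4 and of SMAD4 on chromosome 18 had medians of 0.49 and 0.53. Exons of SMAD1 overlap those of SMAD1-AS1 on the opposite strand, and those of SMAD4 overlap AC091551.1 on the same strand.

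The inhibitory SMADs also went in opposite directions. SMAD6, which acts mainly against BMP receptors and SMAD1 complexes, lies at chr15:66702228-66782848 (plus strand). It had 1.26, 1.38 and 1.42 FPKM against 0.44, 0.65 and 0.67 FPKM, where replicate 1 was the lowest. The means were 1.35 ± 0.0833 and 0.587 ± 0.127 FPKM (SD, n = 3 each), and the log2 fold change was 1.10 (SE 0.15, 95% interval 0.77 to 1.43, adjusted p = 6.2e-05 from limma), beside a neighbour median of -0.16. Its place over the fold criterion was lost without MDA-MB-231 replicate 1 (0.93), with a pseudocount of 1 (0.57) and after quantile normalization (0.67).

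SMAD7, which acts against both TGF-beta and BMP receptors, lies at chr18:48919853-48952052 (minus strand). It had 1.00, 0.99 and 0.95 FPKM against 2.65, 3.31 and 3.44 FPKM, with a wide gap between the lines. The means were 0.98 ± 0.0265 and 3.13 ± 0.424 FPKM (SD, n = 3 each), and the log2 fold change was -1.57 (SE 0.11, 95% interval -1.81 to -1.34, adjusted p = 3.2e-07 from limma). The neighbours of SMAD7 on chromosome 18 had a median log2 fold change of 0.70. The ratio of SMAD6 to SMAD7 was 1.26, 1.39 and 1.5 against 0.166, 0.196 and 0.195. SMAD6 therefore exceeded SMAD7 in every brain-seeking library and was below it in every MDA-MB-231 library. The log2 ratios differed by 2.67 (exact permutation p = 0.1, adjusted 0.117).

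The ID genes were lower in brain-seeking cells. ID1, at chr20:31605283-31606515 (plus strand), was the highest of the 10 genes in both lines. Its level was 45.0, 49.3 and 48.9 FPKM against 122.8, 126.9 and 136.3 FPKM, a large gap beside the spread within a line. The means were 47.7 ± 2.38 and 128.7 ± 6.94 FPKM (SD, n = 3 each), so ID1 in MDA-MB-231 was 2.70 times its level in the brain-seeking line. The log2 fold change was -1.43 (SE 0.045, 95% interval -1.53 to -1.33, adjusted p = 1.5e-09 from limma), and the median of its neighbours was -0.08. ID1 was above 96.6% of all genes of the table in MDA-MB-231 and above 89.7% in the brain-seeking line.

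ID3, at chr1:23557918-23559794 (minus strand), had 16.8, 17.8 and 17.2 FPKM against 44.4, 47.5 and 48.6 FPKM. The lines did not overlap. The means were 17.3 ± 0.528 and 46.8 ± 2.15 FPKM (SD, n = 3 each), and the log2 fold change was -1.43 (SE 0.040, 95% interval -1.52 to -1.34, adjusted p = 6.1e-10 from limma), where the neighbours on chromosome 1 had a median of 0.28. ID1 and ID3, which lie on different chromosomes, kept nearly the same proportion. ID1 was 2.68, 2.76 and 2.84 times ID3 against 2.77, 2.67 and 2.81 times. These ratios overlapped (log2 difference 0.0024, exact permutation p = 1.0), which in so few libraries does not show that they are equal.

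ID2, at chr2:8678845-8684453 (plus strand), was the least abundant ID gene of the 3. It had 0.37, 0.51 and 0.55 FPKM against 2.14, 2.50 and 2.15 FPKM. The highest brain-seeking library was far below the lowest MDA-MB-231 library. The means were 0.477 ± 0.0945 and 2.26 ± 0.205 FPKM (SD, n = 3 each), and the log2 fold change was -2.05 (SE 0.14, 95% interval -2.35 to -1.74, adjusted p = 3.3e-07 from limma), the largest size among the 9 genes with this pseudocount. With a pseudocount of 1 it was -1.14. The median of its 29 neighbours was -0.09. ID2 shares exon positions with the antisense gene ID2-AS1, and the library protocol names no step that marks strand, so reads of the pair cannot be told apart. The ratio of ID2 to ID1 was 0.00994 ± 0.00155 in the brain-seeking line and 0.0176 ± 0.00198 in MDA-MB-231 (SD, n = 3 each), a log2 difference of -0.62 on FPKM + 0.1 (exact permutation p = 0.1, adjusted 0.117). The sign of this difference turned to 0.27 with a pseudocount of 1.

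ID4, a further member of the family, did not follow the others. It had 1.04, 1.24 and 1.26 FPKM in the brain-seeking line and 0.21, 0.21 and 0.14 FPKM in MDA-MB-231, so each brain-seeking library was higher. Its log2 fold change was 2.16 (SE 0.15, adjusted p = 4.5e-07 from limma), or 0.88 with a pseudocount of 1, beside a neighbour median of -0.13. By level ID4 was minor, since ID1, ID2 and ID3 together had 65.5 ± 2.94 FPKM in the brain-seeking line and 177.8 ± 8.88 FPKM in MDA-MB-231 (SD, n = 3 each).

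**Figure D3:**
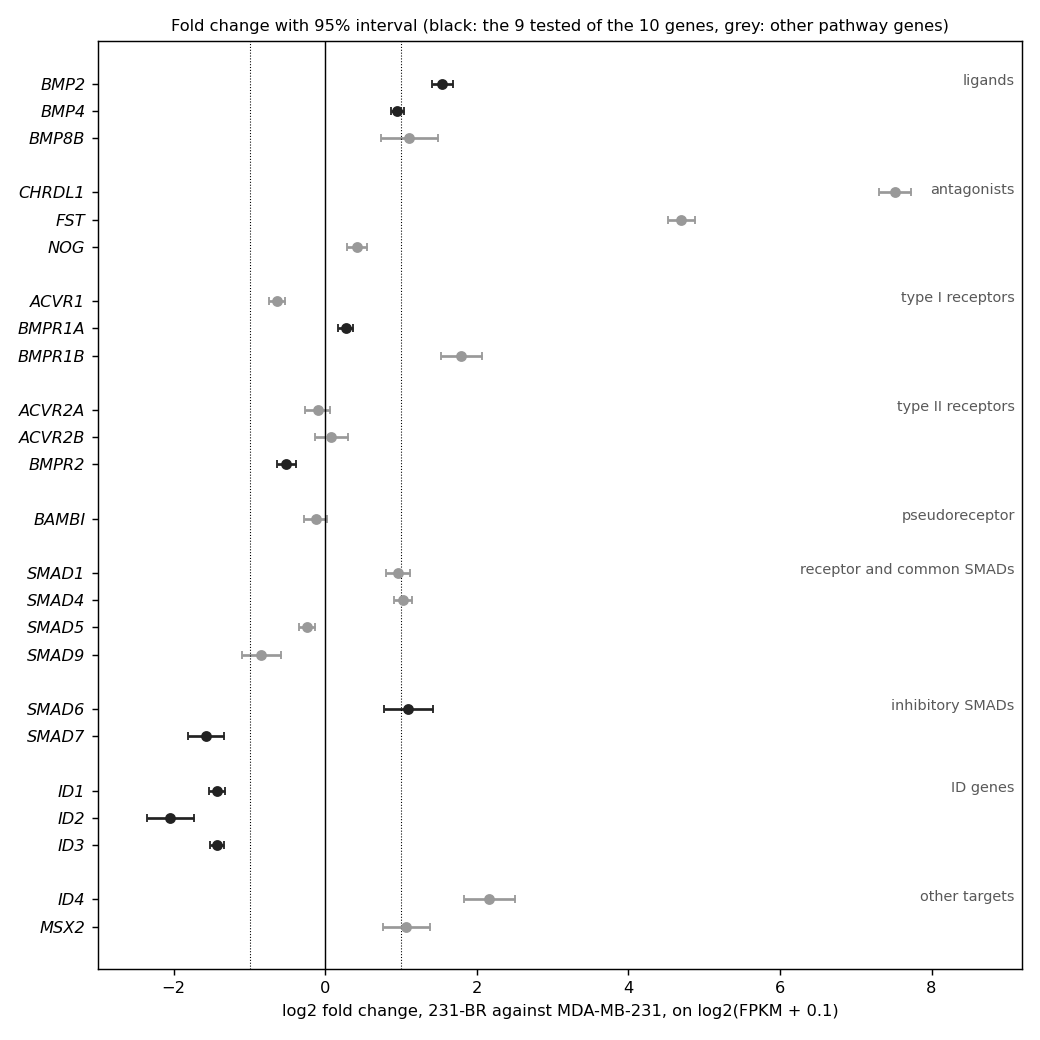
Log2 fold change of the brain-seeking line against MDA-MB-231 on log2(FPKM + 0.1), with 95% intervals, for the 9 tested genes (black) and other named pathway genes (grey), grouped by role, with dotted lines at -1 and 1. The 3 ID genes and SMAD7 lie below -1, BMP2 and SMAD6 lie above 1, and CHRDL1 at 7.52 is the farthest to the right.

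The promoter sequences of ID1, ID2, ID3 and SMAD6 are shown because these genes are direct targets of BMP SMADs. The 3 ID genes shown were lower in the brain-seeking line and SMAD6 was higher. SMAD7, not shown, was also lower, and ID4 was higher. RefSeq held start sites for 9 of the 10 genes (not BMP2), with 14 windows. Each window is the 250 bases before the annotated start, written 5′ to 3′ on the gene's strand (GRCh38.p14). The GC-rich SMAD-binding motifs, GGAGCC in one form or GGCGCC in the other, were searched together with the palindromic SMAD-binding element GTCTAGAC on both strands, and matches are in capitals, so that GGCTCC stands for the reverse strand of GGAGCC. Of 35116 such windows of all genes, 30.64% held GGAGCC, 16.38% held GGCGCC and 0.1823% held GTCTAGAC. The windows are ID1 at chr20:31605039-31605288 (plus strand), ID2 at chr2:8681806-8682055 (plus strand), ID3 at chr1:23559502-23559751 (minus strand) and SMAD6 at chr15:66701986-66702235 (plus strand).
ID1: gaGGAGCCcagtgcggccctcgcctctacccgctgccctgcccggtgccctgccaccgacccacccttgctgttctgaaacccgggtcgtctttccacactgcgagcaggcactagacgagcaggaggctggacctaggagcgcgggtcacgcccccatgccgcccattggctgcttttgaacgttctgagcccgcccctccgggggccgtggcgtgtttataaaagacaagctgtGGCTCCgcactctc
ID2: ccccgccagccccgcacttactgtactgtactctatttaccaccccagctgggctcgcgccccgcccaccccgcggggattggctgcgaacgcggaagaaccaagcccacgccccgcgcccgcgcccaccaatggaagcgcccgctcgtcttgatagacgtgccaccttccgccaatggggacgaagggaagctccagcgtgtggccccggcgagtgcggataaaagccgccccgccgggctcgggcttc
ID3: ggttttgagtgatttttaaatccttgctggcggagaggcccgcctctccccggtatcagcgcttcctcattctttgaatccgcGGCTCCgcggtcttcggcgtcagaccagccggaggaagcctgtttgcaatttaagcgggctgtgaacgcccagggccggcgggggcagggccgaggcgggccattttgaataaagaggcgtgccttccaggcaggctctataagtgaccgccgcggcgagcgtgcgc
SMAD6: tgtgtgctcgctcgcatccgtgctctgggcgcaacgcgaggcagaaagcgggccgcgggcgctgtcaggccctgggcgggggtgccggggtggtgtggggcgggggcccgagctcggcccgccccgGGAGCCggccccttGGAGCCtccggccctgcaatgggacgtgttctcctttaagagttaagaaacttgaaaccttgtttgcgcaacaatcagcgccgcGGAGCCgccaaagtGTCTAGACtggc
ID1 held 2 matches to GGAGCC, whose first bases lie 248 and 14 bases before the start, ID3 held 1 at 167 bases, and ID2 held none. SMAD6 held 3, at 124, 110 and 26 bases, and also the rare palindrome GTCTAGAC at 12 bases. GGCGCC was in none of these 4 windows. The 3 windows of SMAD7, which are not shown, held 1 match to GGAGCC, at 143 bases, and none to the other motifs. Whether the matches bear on the direction of change was not tested. The best-known BMP-responsive element of ID1 lies farther upstream and is outside the window. A match is only a description of the letters and does not show that a SMAD binds there.

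The order of the levels also differed between the lines. In brain-seeking cells it ran, from high to low, ID1, BMP4, ID3, BMPR1A, BMP2, BMPR2, SMAD6, SMAD7, ID2 and GREM1, and no neighbours in this order overlapped. In MDA-MB-231 cells it ran ID1, ID3, BMP4, BMPR1A, BMPR2, SMAD7, BMP2, ID2, SMAD6 and GREM1. There BMP2 and ID2 overlapped and no other neighbours did. ID3 thus stood above BMP4 in MDA-MB-231 and below it in the brain-seeking line.

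**Figure D4:**
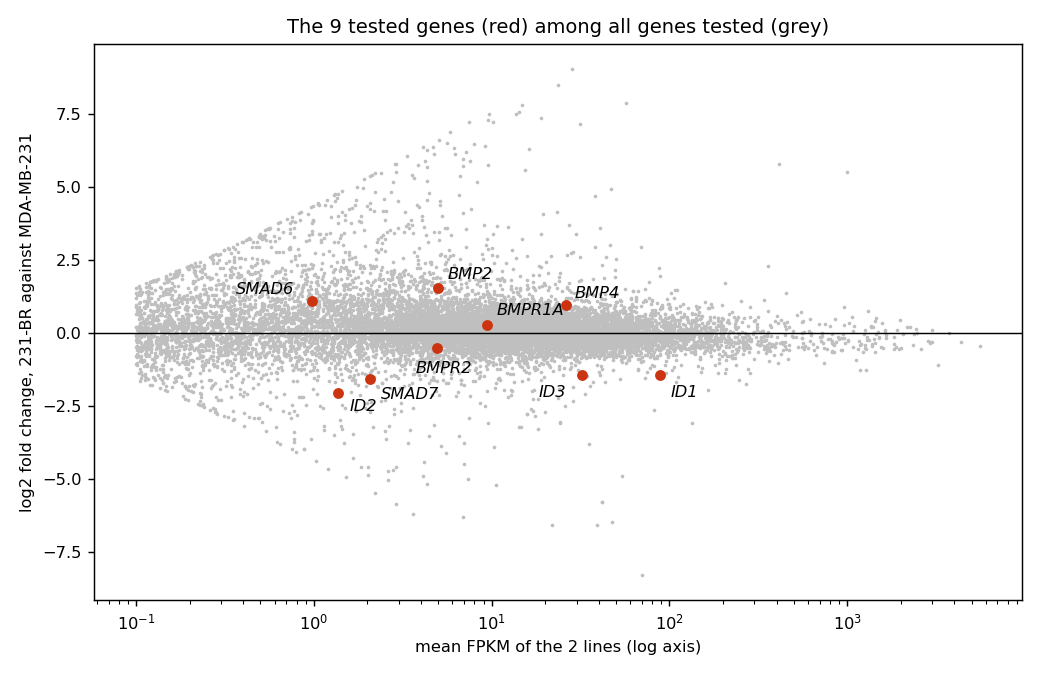
Log2 fold change against mean FPKM of both lines (log axis) for all 13465 genes tested (grey) and the 9 tested genes (red). The red points range from -2.05 for ID2 to 1.54 for BMP2, and the grey points extend beyond them in both directions.

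The rest of the pathway was taken from a list of 60 further genes written by known role. Of these, 53 were in the table, 12 were under the filter and 41 were tested. At an adjusted p under 0.05, 16 were higher in the brain-seeking line, 11 were lower and 14 did not pass, beside a background of 77.3% for both directions together. With the fold criterion, 8 of the 41 were higher and 0 were lower. Of all genes tested 15.2% passed, 10.9% higher and 4.34% lower. The 8 were CHRDL1, FST, BMPR1B, SMAD4, ID4, MSX2, BMP8B and BMP3, the last at 0.173 ± 0.00577 against 0.0333 ± 0.00577 FPKM (SD, n = 3 each). After quantile normalization the split was 4 higher and 1 lower (SMAD9, -1.26). With a pseudocount of 1 the count was 2, CHRDL1 and FST. The median log2 fold change over the 41 genes was 0.03. By role, 2 of 5 tested ligands, 2 of 10 extracellular antagonists or modulators, 1 of 2 type I receptors, 1 of 4 signal-carrying SMADs and 2 of 6 transcriptional targets met the fold criterion. None did of 2 type II receptors, 4 co-receptors or pseudoreceptors, 5 intracellular inhibitors and 3 E protein partners of ID. The share of all genes tested was 15.2%.

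BMP8B, a ligand of the BMP8 pair, had 1.62, 2.21 and 1.70 FPKM in the brain-seeking line against 0.85, 0.97 and 0.60 FPKM in MDA-MB-231, a log2 fold change of 1.11 (SE 0.17, adjusted p = 0.00016 from limma). It was 0.98 without brain-seeking replicate 2 and 0.93 without MDA-MB-231 replicate 3, both under the fold criterion. The same held with a pseudocount of 1 (0.65) and after quantile normalization (0.71). Its values are uncertain, as 8.6% of its 100-base stretches also occur in BMP8A. Exons of BMP8B also overlap those of the protein-coding gene PPIE on the opposite strand. MSX2, a homeobox gene that BMPs induce, had 1.63, 1.43 and 1.69 FPKM against 0.81, 0.75 and 0.56 FPKM. Its log2 fold change was 1.07 (SE 0.14, adjusted p = 4.2e-05 from limma), and it was 0.93 without MDA-MB-231 replicate 3. MSX2 was also under the fold criterion with a pseudocount of 1 (0.60), after median-of-ratios scaling (0.996) and after quantile normalization (0.66). BAMBI, a pseudoreceptor that blocks the receptor complex and is itself a BMP target, had 5.94, 6.59 and 6.74 FPKM against 6.57, 7.04 and 7.48 FPKM, and these values overlapped. Its log2 fold change of -0.13 did not pass (95% interval -0.28 to 0.02, adjusted p = 0.099 from limma), but it did without MDA-MB-231 replicate 1 (-0.18), after median-of-ratios scaling (-0.21) and quantile normalization (-0.30), and with the replicate number as a term (adjusted p = 0.036).

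**Figure D5:**
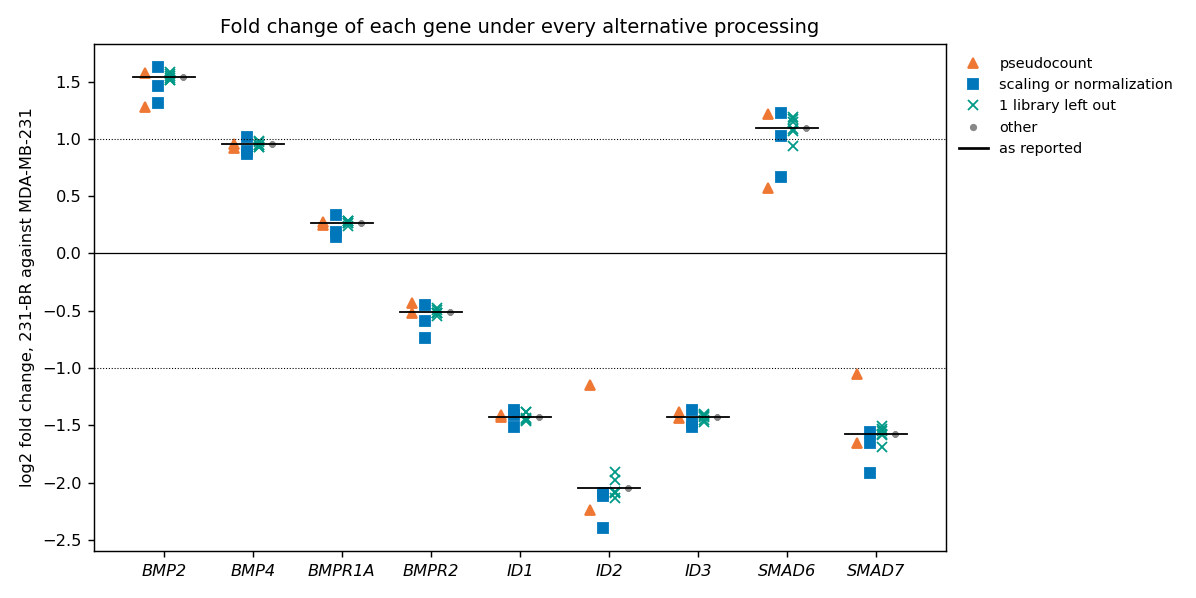
Log2 fold change of each of the 9 tested genes as reported (black line) and under each alternative, with triangles for other pseudocounts, squares for other scalings, crosses for 1 library left out and dots for the rest, and dotted lines at -1 and 1. No symbol crosses 0 for any gene, and the widest range is that of ID2, from -2.40 to -1.14.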

How the data were processed

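RNA of the 2 lines was sequenced as paired reads on a BGISEQ-500. Per the paper's methods and the submitters' notes, reads were filtered with SOAPnuke and aligned with HISAT2 2.0.4 to the genome and with Bowtie2 2.2.5 to a gene set, and GRCh38.p12 is the build named. The authors deposited FPKM with 2 decimals per gene and library. The program that computed it is not given in the sources used here. The authors tested read counts with DESeq2, which FPKM does not allow, so limma was used as planned. Depth is unknown, so no counting interval is given. All columns of samples were used, and libraries were grouped by title, since the cell line field counts upward across the libraries of a line.

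A linear model with 1 term for the line was fitted to log2(FPKM + 0.1) in limma 3.58.1 (R 4.3.3), with variances moderated along a mean-variance trend, for 13465 genes with a mean of at least 0.1 FPKM. Calls had a Benjamini-Hochberg adjusted p under 0.05 and, for the fold criterion, an absolute log2 fold change over 1. In simulated data for this comparison (12978 genes), 63 of 66 genes changed by 0.58 on the log2 scale, 64 of 67 changed by 1 and 67 of 67 changed by 2 were recovered, and 8 of 12778 unchanged genes were called. Few genes were changed there, and the noise was drawn independently for each library with SDs from these same libraries. The simulation therefore does not measure the error rate of the real comparison. Ratios within a library were compared on log2 values with a pseudocount of 0.1 by the 2-sided exact permutation test (scipy 1.17.1). Neighbours were up to 20 genes on either side in RefSeq order (GRCh38.p14, in which 16798 identifiers of the table were found) with a mean of at least 1 FPKM, fewer at chromosome ends. Gene positions, overlaps and shared 100-base stretches came from GENCODE release 29 (GRCh38).

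The genes and lists were chosen with earlier results of these data known. All 10 genes were described. Of the further pathway genes, named were those over the fold criterion with a mean of at least 1 FPKM in a line, and, whatever their values, the type I and II receptors, SMAD1, SMAD4, SMAD5, SMAD9, NOG, CHRD, FST, BAMBI and ID4. BMP3 and the genes outside these that are given with values were named after their values were seen. The alternatives were pseudocounts of 1 and 0.01, no filter and a filter at a mean of 1 FPKM, median-of-ratios scaling, quantile normalization, scaling to equal summed FPKM, eBayes without the trend, the replicate number as a block, and each library left out in turn.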

Additional observations from a re-analysis of the deposited data

How the results depend on the processing

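All 9 tested genes kept their direction and an adjusted p under 0.05 in the 15 alternatives, SMAD6 in the 14 in which it was tested. The count of these genes over the fold criterion was 5 to 7. Of the further pathway genes, 8 met the fold criterion, against 2 with a pseudocount of 1 and 5 each with a filter at a mean of 1 FPKM (fewer genes tested), after median-of-ratios scaling and after quantile normalization; the cause of the last pair was not tested. Leaving out 1 library gave 6 to 9. Among all genes, 2051 met the fold criterion, against 997 with a pseudocount of 1 and 1294 with the filter at 1 FPKM. The log2 ratio of ID1 to ID3, 0.0024 as reported, turned to -0.026 with a pseudocount of 1, and ranged from -0.018 to 0.024 with 1 library left out (below 0 without brain-seeking replicate 3 or MDA-MB-231 replicate 2). That of ID2 to ID1 turned from -0.62 to 0.27 with a pseudocount of 1. ACVR2B turned from 0.08 to -0.00087 after median-of-ratios scaling and -0.32 after quantile normalization. Between libraries of the same replicate number, deviations from the line means had correlations of 0.09, -0.04 and -0.11 over 11124 genes. Replicate 1 had the lowest summed FPKM in both lines. Whether the libraries were paired cannot be told from these values. With the replicate block, 10502 genes in place of 10406 passed the adjusted p, which changed no call of the 9 tested genes (9 at the adjusted p, 6 with the fold criterion), left the count of further pathway genes at 8, and let BAMBI pass the adjusted p. Depth is unknown, so how many reads lie behind a value near 0 FPKM, such as those of GREM1, is unknown too.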

Other observations

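Beyond the genes described so far, 2 of the ubiquitin ligases that act on SMADs and receptors were higher in the brain-seeking line. Of the 5 tested intracellular inhibitors only these 2 passed the adjusted p, against 77.3% of all genes tested. The neighbours of SMURF2 and NEDD4L had median log2 fold changes of 0.44 and 0.27. SMURF2 had 100.8 ± 0.288 FPKM against 62.2 ± 2.33 FPKM (SD, n = 3 each), and the log2 fold change was 0.70 (adjusted p = 1.1e-08 from limma). NEDD4L had 79.5 ± 1.55 and 55.2 ± 0.745 FPKM (SD, n = 3 each), and the log2 fold change was 0.53 (adjusted p = 2.9e-08 from limma), while the ligase SMURF1 (11.35 ± 0.300 against 11.45 ± 0.395 FPKM, SD, n = 3 each, log2 fold change -0.01) and the SMAD corepressors SKI (0.03) and SKIL (-0.04) did not pass the test. The co-receptors split. RGMB, which enhances BMP signalling, rose from 34.9 ± 1.22 to 47.4 ± 0.538 FPKM (SD, n = 3 each), and ENG, which encodes endoglin, fell from 73.95 ± 2.69 to 48.4 ± 0.886 FPKM (SD, n = 3 each), with log2 fold changes of 0.44 and -0.61. Of the 6 tested genes listed as further transcriptional targets, 2 were higher (ID4 and MSX2), 3 were lower and HEY1 did not pass (-0.27, adjusted p = 0.19 from limma). SMAD6, SMAD7 and BAMBI were listed under other roles and are not in this count. Of all genes tested 77.3% were called, 44.4% higher and 32.9% lower, so this count does not set the targets apart. ATOH8 was lower at a log2 fold change of -0.57 (adjusted p = 0.013), but did not pass without brain-seeking replicate 1 (-0.46) or MDA-MB-231 replicate 2 (-0.48), and RUNX2 was lower at -0.24 (adjusted p = 0.006). GATA2 was lower in the brain-seeking line at a log2 fold change of -0.77 (5.61 ± 0.262 against 9.66 ± 0.378 FPKM, SD, n = 3 each).

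E proteins are the partners that ID proteins hold. TCF3 did not pass the test (26.0 ± 0.348 against 26.1 ± 1.76 FPKM, SD, n = 3 each, 95% interval of the log2 fold change -0.10 to 0.10), and TCF12 was lower by a log2 fold change of -0.19 (adjusted p = 0.00089 from limma). The sum of ID1, ID2 and ID3 over the sum of TCF3, TCF4 and TCF12 was 1.49, 1.61 and 1.59 against 4.0, 3.97 and 4.14, a log2 difference of -1.37 (exact permutation p = 0.1, adjusted 0.117 over the 7 ratios), in a ratio chosen after its values were seen.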
